A study of Mus musculus with 4 samples.

Results

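The genes described here encode the secreted and membrane-bound enzymes that cut the extracellular matrix, together with inhibitors and relatives of them, measured in EO771 mouse mammary carcinoma cells. Members were chosen by gene symbol alone: every gene whose array annotation reads Mmp or Timp followed by a number, every gene beginning with Adamts, and Plau, Plaur and Plat. This gave 52 of the 22180 genes with a probe set of their own, made up of 22 Mmp genes, 4 Timp genes, 18 Adamts genes, 5 Adamts-like genes and 3 genes of the plasminogen activator system. The RefSeq gene table lists 54 protein-coding genes under these symbols, and the other two, Mmp15 and Adamts2, were not analysed here. EO771 is a line derived from a mouse mammary tumour. In 2 cultures the cells were given A-FABP, the fatty acid carrier of fat cells encoded by Fabp4, as recombinant mouse protein at 100 ng/ml. In 2 control cultures they were given PBS. Both followed 24 hours of growth to at least 70% confluence, and each culture was read on 1 array. All 4 cultures are of the 1 cell line and the titles call them biological replicates. How long the treatment lasted is not stated in these sources, and 1 description field of the PBS arrays names A-FABP, although their titles, source names and the design mark them as controls.

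Matrix metalloproteinases (Mmp) are zinc-dependent proteases made as inactive precursors, and the activated enzymes cleave collagens, gelatin, proteoglycans and elastin as well as growth factors bound in the matrix. Tissue inhibitors of metalloproteinases (Timp) bind the active site. The Adamts enzymes are secreted relatives that carry thrombospondin repeats and cut proteoglycans, procollagens or von Willebrand factor, while Adamts-like proteins keep the repeats and lack the protease domain. Urokinase (Plau), bound to its receptor (Plaur), and tissue plasminogen activator (Plat) turn plasminogen into plasmin, which degrades fibrin and can activate Mmp precursors. In breast tumours these enzymes are known for their part in invasion, and stromal cells are often a main source.

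With A-FABP, the mean of each of the 6 collagenase and stromelysin genes lay above that of its controls, and 4 of them did so at an unadjusted p under 0.05: Mmp1b at 1.87-fold at a dim probe set, Mmp1a just under 1.5-fold, Mmp3 at 1.34-fold and Mmp13 at 1.31-fold. Adamts3 and Adamts6 were the other two members on the higher side. Mmp24, Mmp17, Mmp21, Mmp23, Adamts15 and Adamts12 lay below their controls, between 1.19-fold and 1.45-fold, with Mmp21 and Adamts15 at dim probe sets. That makes 6 members higher and 6 lower of 52 at an unadjusted p under 0.05, where 4.81% of all genes were higher and 8.24% lower. No member passed the limma p adjusted over all 41345 probe sets (lowest adjusted p 0.296), and 0.00% of all probe sets did, so every value below is a measurement and not a call. With single arrays left out, 2 to 4 members were higher (2 without A-FABP replicate 2, and 3 without either PBS control array) and 2 to 7 lower (2 without PBS control replicate 1, 3 without PBS control replicate 2, and 4 without A-FABP replicate 2) at an unadjusted p under 0.05. Without adjustment, 6258 probe sets (15.1%) had a p under 0.05. In bulk RNA, fewer cells of a type and less RNA per cell cannot be told apart.

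Over all 52 members the median difference was -0.03, beside -0.01 over all genes. Of them, 21 lay above 0 and 31 below (47.6% and 52.4% of all genes), a balance that turned to 28 above and 24 below when each array was centred on its median. Both A-FABP arrays lay above both PBS arrays in 17 members and below them in another 17, where 26.0% and 27.5% of all genes did so. By limma at least 1.5-fold and at an unadjusted p under 0.05, 1 member (Mmp1b) was higher, against 0.415% of all genes, and 0 were lower, against 0.645%. Of the 92 genes higher by that measure, 86 had a mean under 7, and Mmp1b, with a mean of 4.54, was dimmer than the array medians of 5.95 to 6.03 and is not clearly present. Mmp1a stood just outside that fold, with a log2 difference of 0.58.

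**Figure D1:**
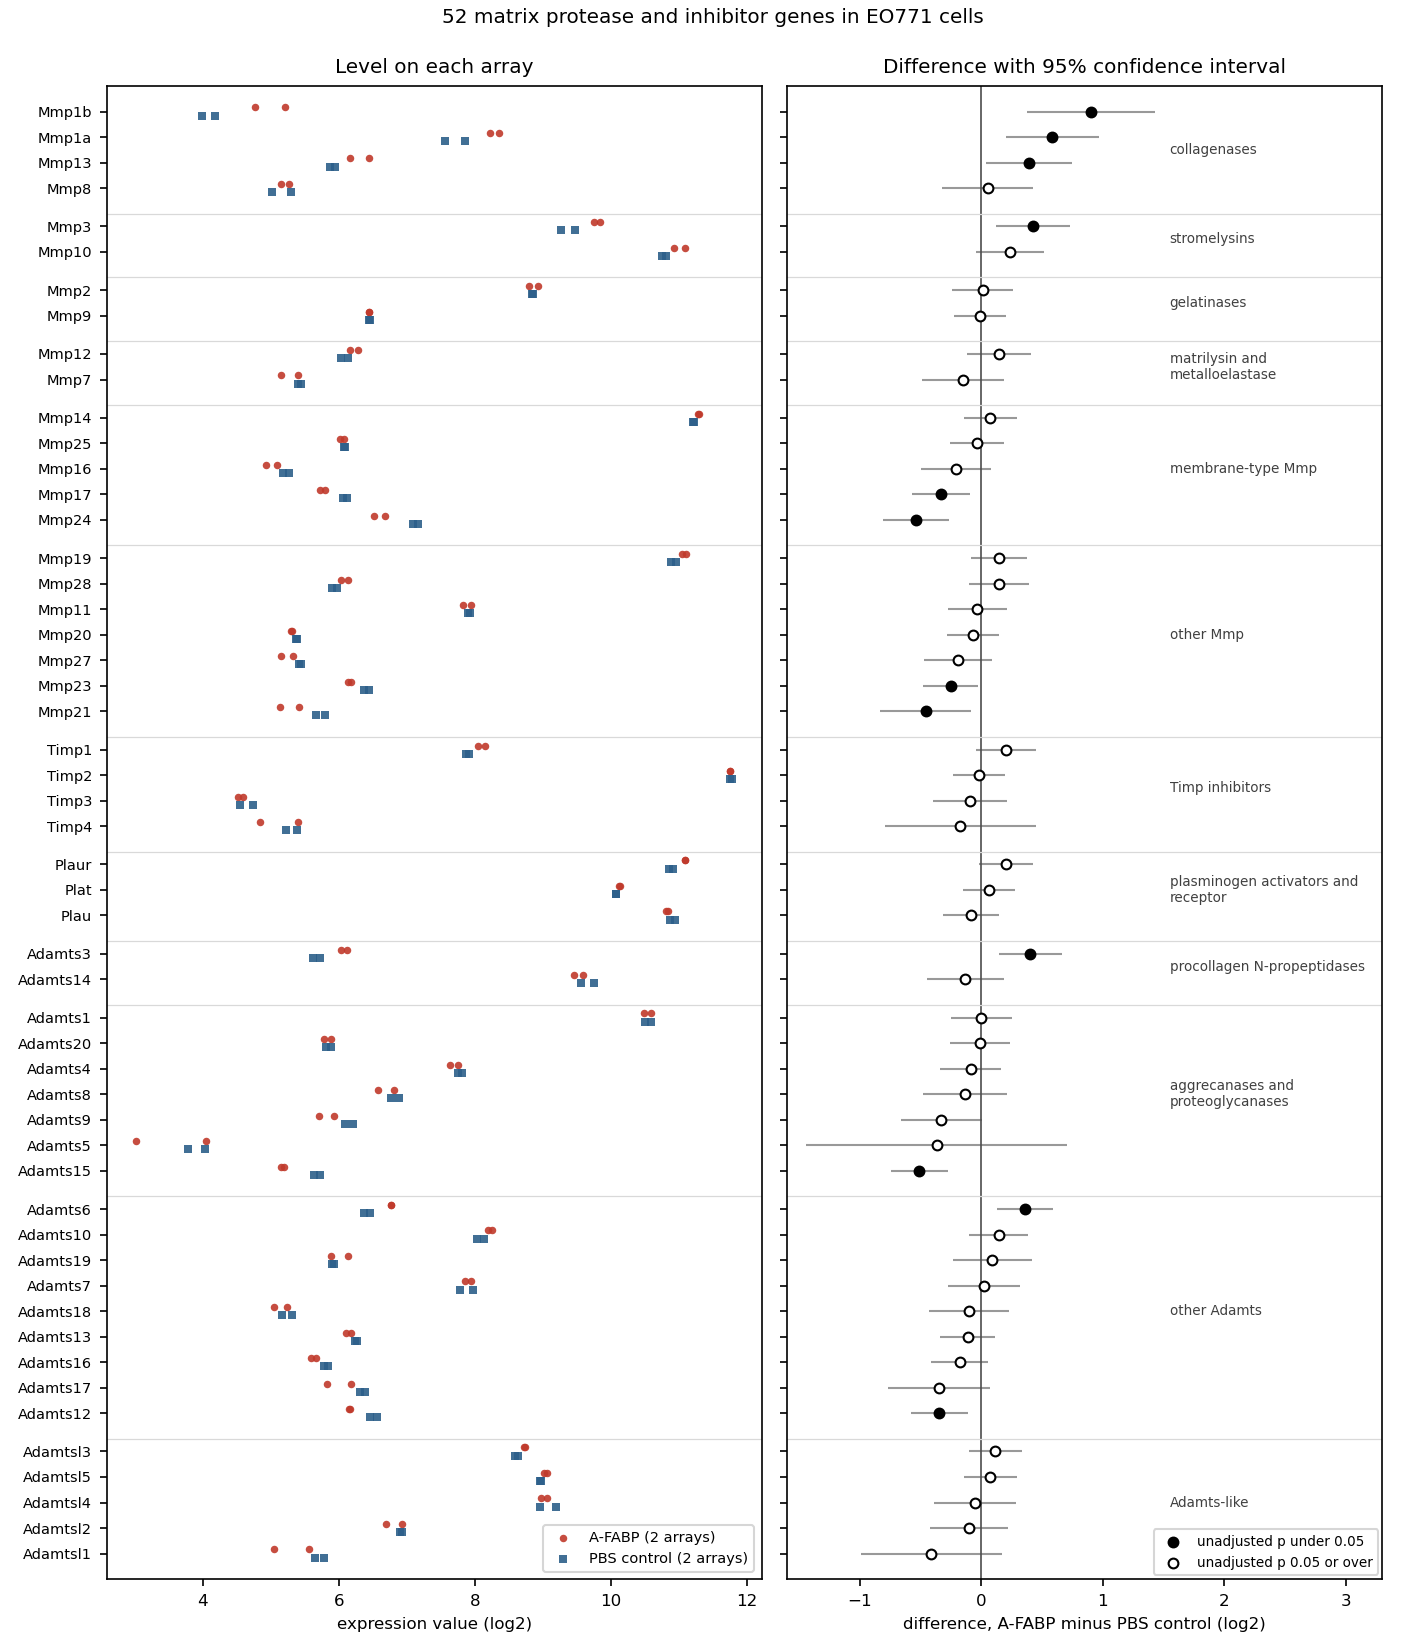
Left, the log2 expression value of each of the 52 genes on the 2 A-FABP arrays (red circles) and the 2 PBS control arrays (blue squares), grouped by role. Right, the log2 difference, A-FABP minus PBS control, with its 95% confidence interval from limma, filled where the unadjusted p was under 0.05: Mmp1b (0.90) and Mmp1a (0.58) lie farthest to the right, and Mmp24 (-0.53) and Adamts15 (-0.51) farthest to the left among the filled points.

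The collagenases are named for the cleavage of fibrillar collagen, and the activity of each enzyme was not measured here. Mmp1b, a rodent relative of human interstitial collagenase, read 4.77 and 5.21 on the A-FABP arrays, against 3.99 and 4.18 on the PBS arrays, in log2 units. The A-FABP readings were both above the controls, by a log2 difference of 0.90 ± 0.19 SE (95% CI 0.38 to 1.43, limma adjusted p 0.296). All 4 readings lay below the array medians, and leaving out dim probe sets removed Mmp1b, so its fold compares dim readings. Mmp1a, its close paralog, read 8.22 and 8.35 with A-FABP, against 7.85 and 7.56 with PBS. Again the groups did not overlap, with a difference of 0.58 ± 0.14 (95% CI 0.20 to 0.97, limma adjusted p 0.296). Mmp1a and Mmp1b are near copies, and whether their probe sets read each other's transcripts was not tested.

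Mmp13, collagenase-3, read 6.17 and 6.44 with A-FABP, against 5.87 and 5.94 with PBS. The 2 A-FABP arrays were both higher but lay farther apart than the controls did, at a difference of 0.39 ± 0.13 (95% CI 0.04 to 0.74, limma adjusted p 0.312). Mmp8, the collagenase first known from neutrophils, read 5.27 and 5.15 with A-FABP, against 5.02 and 5.30 in the controls. Its groups overlapped and the difference was 0.05 (95% CI -0.32 to 0.43).

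Both stromelysins were higher with A-FABP on both arrays. Mmp3, stromelysin-1, which has broad substrates and activates other Mmp precursors, read 9.75 and 9.84 with A-FABP, against 9.47 and 9.27 with PBS. The gap between the nearest arrays of the 2 groups was wider than the gap between the controls, and the difference was 0.42 ± 0.11 (95% CI 0.12 to 0.73, limma adjusted p 0.296). Mmp10, stromelysin-2, read 10.93 and 11.10 with A-FABP, against 10.81 and 10.75 with PBS. Its difference of 0.24 ± 0.10 had a 95% CI of -0.04 to 0.51 and did not reach an unadjusted p under 0.05 (limma adjusted p 0.367).

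All 6 of these genes lie in a single Mmp cluster on mouse chromosome 9. In the RefSeq gene order it holds Mmp13, Mmp12, Mmp1b, Mmp3, Mmp1a, Mmp10, Mmp8, Mmp27, Mmp20 and Mmp7 with no other protein-coding gene between them. From Mmp13 to Mmp10, 6 consecutive genes had both A-FABP arrays above both PBS arrays (as did 26.0% of all genes), with differences of 0.39, 0.14, 0.90, 0.42, 0.58 and 0.24. The next gene, Mmp8, overlapped, and the last 3 lay below 0, at -0.19 for Mmp27, -0.07 for Mmp20, which encodes enamelysin and whose sign turned under cyclic loess, and -0.15 for Mmp7, which encodes matrilysin. Mmp8, Mmp27, Mmp20 and Mmp7 had means of 5.18 to 5.35, below the array medians of 5.95 to 6.03, and so are not clearly present. All genes with means between 5 and 6 had a median difference of -0.15. Mmp12, macrophage elastase, was the smallest of the first 6 and read 6.16 and 6.28 with A-FABP, against 6.13 and 6.03 with PBS.

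The 10 cluster genes had a median difference of 0.19 (0.13 to 0.26 with single arrays left out), against -0.03 for the 12 Mmp genes elsewhere in the genome. Of the cluster genes, 4 were higher and 0 lower at an unadjusted p under 0.05, and of the 12 others 0 were higher and 4 lower. Over all genes, 4.81% were higher and 8.24% lower. The 4 lower Mmp genes all had means under 7, where 1689 of 13019 genes were lower. Grouping by position was chosen after the values were seen, so no test of the cluster is given. Of the 4 protein-coding neighbours on each side, those nearest to the cluster, Dcun1d5 and Tmem123, lay at 0.06 and 0.0006. Farther out, Dync2h1, a dynein motor gene, lay at 0.26 and Birc3, an inhibitor of apoptosis, at 0.25, and both had A-FABP arrays above the controls. Of the other four, Birc2 lay at 0.087, Yap1 at -0.05, Ddi1 at -0.21 and Pdgfd at -0.0037.

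**Figure D2:**
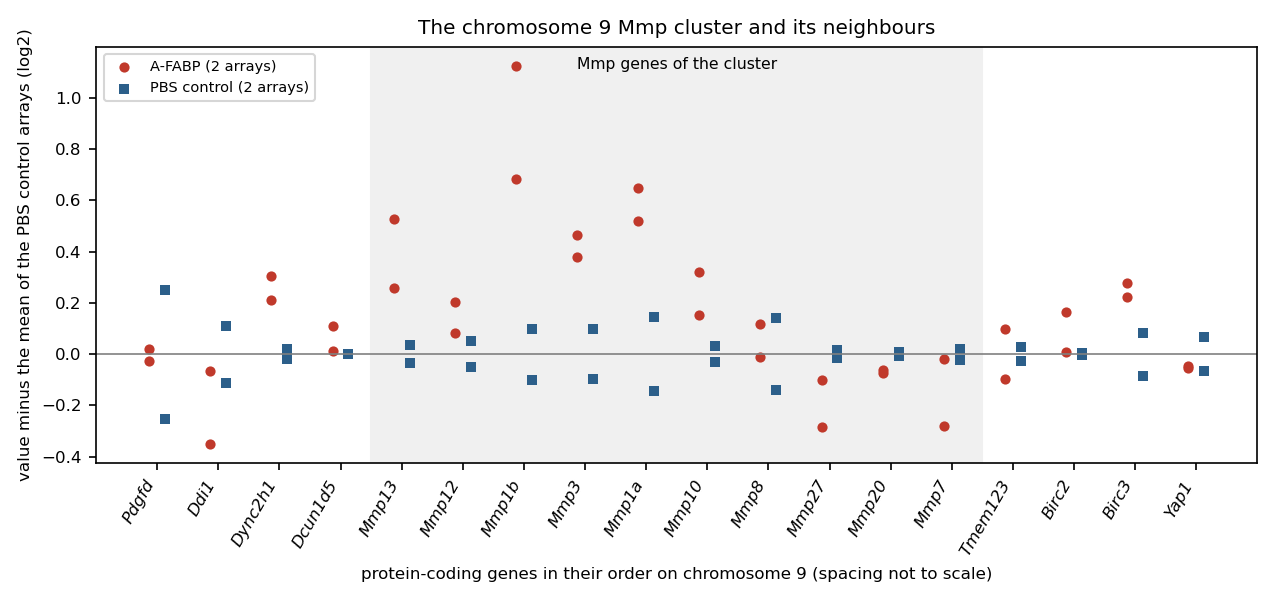
Each array's log2 value minus the mean of the PBS control arrays, for the protein-coding genes of the chromosome 9 Mmp cluster (shaded) and 4 neighbours on each side in RefSeq order, with A-FABP as red circles and PBS control as blue squares. The 6 genes from Mmp13 to Mmp10 have both red circles above both blue squares, and Mmp27 and Mmp20 have them below.

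After these values were seen, the promoters of members were read from RefSeq (build GRCm38.p6), from 250 bases before to 50 bases after the transcription start. They were available for 35 of the 52 members in 38 windows. The windows below, on the strand of the gene and 5′ to 3′, are those of the 5 cluster genes with the largest differences, then Mmp27, a cluster gene that lay below its controls, and Plaur, which is on another chromosome. Capitals mark matches to TGANTCA, with any base at N, a loose form of the AP-1 motif of Fos and Jun factors. The printed windows were picked with values and matches known. Mmp20 and Mmp7, cluster genes that also lay below 0 but hold the motif, are not printed.
Mmp13, chr9:7272264-7272563, plus strand: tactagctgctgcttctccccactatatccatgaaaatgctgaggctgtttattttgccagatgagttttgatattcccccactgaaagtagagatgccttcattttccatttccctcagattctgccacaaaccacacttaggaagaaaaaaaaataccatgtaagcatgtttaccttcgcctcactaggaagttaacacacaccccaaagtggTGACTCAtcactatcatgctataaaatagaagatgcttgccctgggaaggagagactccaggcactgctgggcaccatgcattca
Mmp1b, chr9:7387977-7388276, minus strand: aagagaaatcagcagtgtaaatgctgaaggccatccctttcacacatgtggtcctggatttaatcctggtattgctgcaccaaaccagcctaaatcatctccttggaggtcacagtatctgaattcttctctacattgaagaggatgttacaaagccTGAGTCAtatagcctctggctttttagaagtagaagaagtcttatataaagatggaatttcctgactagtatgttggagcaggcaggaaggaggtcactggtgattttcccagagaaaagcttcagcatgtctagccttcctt
Mmp3, chr9:7445572-7445871, plus strand: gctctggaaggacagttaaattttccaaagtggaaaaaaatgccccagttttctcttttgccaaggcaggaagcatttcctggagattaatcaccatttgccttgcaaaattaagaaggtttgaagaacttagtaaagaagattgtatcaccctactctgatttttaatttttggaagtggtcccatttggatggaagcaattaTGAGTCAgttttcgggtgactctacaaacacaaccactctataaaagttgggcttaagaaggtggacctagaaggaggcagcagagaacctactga
Mmp1a, chr9:7463891-7464190, plus strand: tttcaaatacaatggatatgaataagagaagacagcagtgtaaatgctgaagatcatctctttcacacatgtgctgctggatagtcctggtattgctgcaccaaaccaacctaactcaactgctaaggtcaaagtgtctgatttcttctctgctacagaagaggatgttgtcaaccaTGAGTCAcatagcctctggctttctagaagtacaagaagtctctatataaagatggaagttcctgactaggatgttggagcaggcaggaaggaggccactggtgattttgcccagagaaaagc
Mmp10, chr9:7502092-7502391, plus strand: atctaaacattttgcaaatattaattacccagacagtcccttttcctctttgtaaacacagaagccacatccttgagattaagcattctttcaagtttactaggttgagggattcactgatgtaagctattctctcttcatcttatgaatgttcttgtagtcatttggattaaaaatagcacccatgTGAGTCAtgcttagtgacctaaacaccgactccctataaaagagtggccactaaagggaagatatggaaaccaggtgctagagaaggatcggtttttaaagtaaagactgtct
Mmp27, chr9:7571146-7571445, plus strand: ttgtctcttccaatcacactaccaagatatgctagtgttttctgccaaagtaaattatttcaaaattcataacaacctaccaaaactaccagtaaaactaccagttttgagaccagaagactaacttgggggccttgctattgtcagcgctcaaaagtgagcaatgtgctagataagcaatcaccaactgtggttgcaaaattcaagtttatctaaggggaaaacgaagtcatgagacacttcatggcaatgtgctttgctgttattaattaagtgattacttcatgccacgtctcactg
Plaur, chr7:24462233-24462532, plus strand: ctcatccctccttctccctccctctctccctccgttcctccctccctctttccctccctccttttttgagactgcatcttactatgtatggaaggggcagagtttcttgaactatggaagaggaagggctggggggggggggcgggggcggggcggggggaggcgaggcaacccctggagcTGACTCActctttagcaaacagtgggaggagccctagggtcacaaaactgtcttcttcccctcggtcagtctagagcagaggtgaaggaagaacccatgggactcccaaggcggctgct

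The motif TGANTCA reads the same on both strands. It was found in 9 of the 38 member windows and in 7.81% of all 32851 promoter windows of this length, with any base at N in both counts. Of the 9 genes that hold it, 8 are in the chromosome 9 cluster (Mmp13, Mmp12, Mmp1b, Mmp3, Mmp1a, Mmp10, Mmp20 and Mmp7) and the other is Plaur. Mmp12 and Mmp7 each have another window without the motif. The first base of the motif lay between -95 and -35, counted from the start site, at -46 in Mmp3, -73 in Mmp1a, -93 in Mmp1b, -63 in Mmp10 and -35 in Mmp13. Of the 9 genes, 7 had differences above 0 and 4 of those an unadjusted p under 0.05, while Mmp20 and Mmp7 lay below 0. The match in Mmp20 reads TGAATCA, and the others read TGAGTCA or TGACTCA. Mmp20, Mmp7 and, of the higher genes, Mmp1b are not clearly present. All genes with means between 5 and 6, the level of Mmp20 and Mmp7, had a median difference of -0.15. Of the 26 genes with a window but no such motif, 1 (Adamts3) was higher at an unadjusted p under 0.05, as were 4.81% of all genes. The motif was looked for after the values were seen, and 8 of the 9 genes that hold it are related genes of the cluster. Motif and place in the cluster therefore cannot be told apart, and a link of the motif to the differences was not tested.

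Other motifs were searched on both strands. AGGAAG, the PEA3 motif of Ets factors, stood in 17 of 38 member windows and 35.4% of all windows. TATAAA stood in 12 member windows and 13.6% of all, among them those of 9 of the 10 cluster genes. A form of the NF-kB motif that begins with GGG, ends with CC and holds TT between stood in 1 member window (Adamtsl2) and 4.79% of all. No motifs of different kinds overlapped in the member windows. The Mmp1a and Mmp1b windows were 86.8% identical over 281 aligned positions. A match is a run of letters and not evidence of binding.

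The gelatinases, which cut denatured collagen and type IV collagen of basement membranes, lay close to 0, and their signs depend on the scaling. Mmp9 read 6.45 on both A-FABP arrays, against 6.46 and 6.45 with PBS, which is a difference of -0.01 (95% CI -0.22 to 0.20). Mmp2 read 8.93 and 8.79 with A-FABP, against 8.85 and 8.84 with PBS, and so differed by 0.01 (95% CI -0.24 to 0.26). The intervals leave room for changes of up to about that size in either direction.

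Among the membrane-type enzymes, 4 of the 5 measured lay below 0, or 3 of 5 after centring, which turned Mmp25. Mmp24 (MT5-MMP) read 6.67 and 6.52 with A-FABP, against 7.17 and 7.09 with PBS. The groups were well apart, at a difference of -0.53 ± 0.10 (95% CI -0.81 to -0.26, limma adjusted p 0.296), a fold of 1.45 lower with A-FABP. A probe set annotated to both Mmp24 and another gene, which stands for neither, lay at -0.13. Mmp17 (MT4-MMP), which is held in the membrane by a lipid anchor, read 5.80 and 5.72 with A-FABP, against 6.13 and 6.06 with PBS. Its difference was -0.33 ± 0.08 (95% CI -0.57 to -0.09, limma adjusted p 0.296), with no overlap.

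Mmp14 (MT1-MMP), the membrane activator of the Mmp2 precursor, read 11.30 and 11.29 with A-FABP, against 11.23 and 11.21 with PBS. Both A-FABP arrays were higher, though only by 0.08 (95% CI -0.14 to 0.29). Mmp16 (MT3-MMP) and Mmp25 (MT6-MMP) lay at -0.21 and -0.04. Mmp16, with a mean of 5.12, is not clearly present.

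The remaining 7 Mmp genes ran from -0.46 to 0.15. Mmp21, known for its role in left-right patterning of the embryo, read 5.41 and 5.13 with A-FABP, against 5.79 and 5.66 with PBS, and lay at -0.46 ± 0.13 (95% CI -0.83 to -0.08, limma adjusted p 0.302). Mmp23 read 6.13 and 6.18 with A-FABP, against 6.37 and 6.44 with PBS, and lay at -0.25 ± 0.08 (95% CI -0.48 to -0.02, limma adjusted p 0.312). Neither gene had overlapping groups. Mmp19 read 11.10 and 11.05 with A-FABP, against 10.96 and 10.89 with PBS, which is 0.15 higher (95% CI -0.08 to 0.38), again with no overlap. Mmp28, epilysin, lay at 0.14 and Mmp11, stromelysin-3, at -0.03, with -0.14 at the other Mmp11 probe set.

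Of the 4 inhibitor genes, Timp1 alone had both A-FABP arrays above both controls. It read 8.04 and 8.15 with A-FABP, against 7.87 and 7.91 with PBS, higher by 0.20 ± 0.09 (95% CI -0.04 to 0.45, limma adjusted p 0.373). Timp2, which also takes part in Mmp2 activation by Mmp14, read 11.74 and 11.75 with A-FABP, against 11.78 and 11.75 with PBS, at -0.02 (95% CI -0.24 to 0.19), or 0.044 after centring. Timp3, the inhibitor that stays bound to the matrix, read 4.51 and 4.59 with A-FABP, against 4.74 and 4.54 with PBS, at -0.09. Timp4 read 5.40 and 4.84 with A-FABP, against 5.38 and 5.22 with PBS, at -0.17. Groups overlapped for Timp3 and Timp4, and the second A-FABP array alone was low for Timp4.

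In the plasminogen system the receptor gene lay farther from 0 than the activator genes. Plaur read 11.09 on both A-FABP arrays, against 10.91 and 10.85 with PBS. The difference of 0.20 ± 0.08 (95% CI -0.02 to 0.43, limma adjusted p 0.344) came with no overlap between groups. Plau read 10.81 and 10.85 with A-FABP, against 10.87 and 10.95 with PBS, and lay at -0.08 (95% CI -0.31 to 0.15). Plat read 10.13 and 10.14 with A-FABP, against 10.07 and 10.08 with PBS, and lay at 0.06 (95% CI -0.15 to 0.27). Differences between the 3 genes were not tested.

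The aggrecanases and other proteoglycan-cutting Adamts genes, 7 in all, had differences from -0.51 to -0.0006, with a median of -0.13, though centring turned Adamts1 and Adamts20 above 0. Adamts15, a versican-cleaving enzyme, read 5.20 and 5.15 with A-FABP, against 5.73 and 5.64 with PBS. Its groups were apart by -0.51 ± 0.08 (95% CI -0.74 to -0.27, limma adjusted p 0.296), the lowest unadjusted p of any member (0.00398). With a mean of 5.43, below the array medians of 5.95 to 6.03, Adamts15 is not clearly present. Adamts9, which also cleaves versican, was lower on both arrays as well, at -0.33 ± 0.12 (limma adjusted p 0.332). Adamts1 read 10.59 and 10.49 with A-FABP, against 10.50 and 10.59 with PBS, with overlapping groups. Of the aggrecanases proper, Adamts4 lay at -0.09 and Adamts5 at -0.37 with a 95% CI of -1.44 to 0.70, since its A-FABP arrays read 4.04 and 3.02. Adamts5, with a mean of 3.72, is not clearly present.

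The measured procollagen N-propeptidases, which trim procollagens, lay on opposite sides of 0. Adamts3, which also processes the lymphatic growth factor VEGF-C, read 6.12 and 6.02 with A-FABP, against 5.73 and 5.61 with PBS. It lay higher by 0.40 ± 0.09 (95% CI 0.14 to 0.66, limma adjusted p 0.296) with no overlap. Adamts14 read 9.46 and 9.59 with A-FABP, against 9.56 and 9.75 with PBS, overlapping at -0.13, and its other probe set lay at -0.15.

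Among the 9 other Adamts genes, Adamts6, a relative of the fibrillin-binding Adamts10, read 6.77 on both A-FABP arrays, against 6.37 and 6.45 with PBS. Its difference was 0.36 ± 0.08 (95% CI 0.13 to 0.59, limma adjusted p 0.296). Adamts12, which can cleave cartilage oligomeric matrix protein, read 6.17 and 6.15 with A-FABP, against 6.55 and 6.45 with PBS, and lay at -0.35 ± 0.08 (95% CI -0.58 to -0.11, limma adjusted p 0.296). These genes lay on opposite sides of 0, each without overlap. The other 7 ran from -0.35 for Adamts17 to 0.14 for Adamts10 and had smaller differences or wider intervals, with Adamts13, the von Willebrand factor protease, at -0.11. The 5 Adamts-like genes ran from -0.41 for Adamtsl1, whose A-FABP arrays read 5.05 and 5.57, to 0.12 for Adamtsl3. Adamtsl1, with a mean of 5.51, is not clearly present.

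Differences on these arrays moved with the expression value itself, which bears on the members at low values. Over all genes, those whose mean fell between 5 and 6 had a median difference of -0.15 and those between 6 and 7 of -0.10, while those between 7 and 8 and between 8 and 9 had medians of 0.09. The members followed the same course: 22 of the 29 with a mean between 5 and 7 lay below 0, and 13 of the 20 with a mean of 7 or more lay above. With a mean under 7, 24 of 32 members and 9081 of 13019 genes lay below 0. At 7 or more, 6624 of 9161 genes lay above. All 6 members on the lower side had means between 5 and 7, where Adamts15 at -0.51 and Mmp24 at -0.53 stand beside medians of -0.15 and -0.10. Of these members, Adamts15 (5.43), Mmp21 (5.50) and Mmp17 (5.93) had means below the array medians of 5.95 to 6.03, and so are not clearly present. The same holds for Adamts3 (5.87), a higher member. On the higher side Mmp3 and Mmp1a lay among genes with medians of 0.06 and 0.09. Mmp13, Adamts6, Adamts3 and Mmp1b went against the median of the genes at their level, which was between -0.15 and -0.10. Minus that median, the difference was 0.55 for Adamts3 and 1.02 for Mmp1b. Expression values of different probe sets are not amounts of RNA that can be set against each other, so the order of the members by value carries no meaning here.

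**Figure D3:**
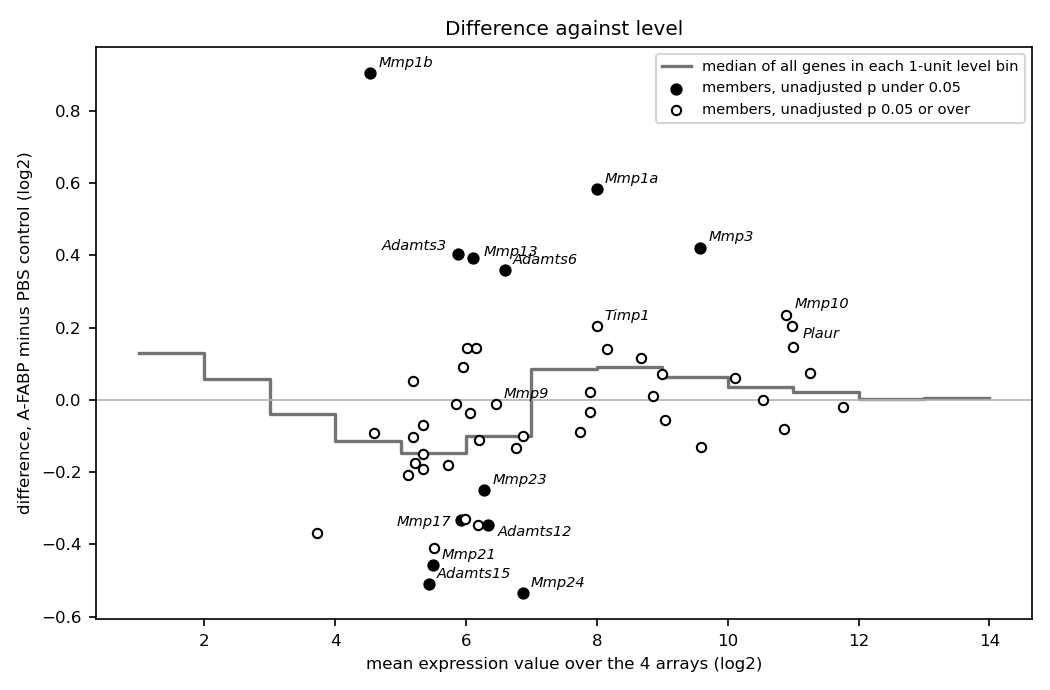
The log2 difference, A-FABP minus PBS control, of the 52 genes against their mean log2 value over the 4 arrays, filled where the unadjusted p was under 0.05. The grey step is the median of all genes in each 1-unit bin, for bins of at least 20 genes. It lies below 0 between 3 and 7 and above 0 from 7 on, and the 6 filled points below 0 all lie between 5 and 7.

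Genes that regulate these proteases or work beside them were followed as 4 lists. Of 15 measured genes of other protease inhibitors, 4 were lower and 1 higher at an unadjusted p under 0.05, with a median of -0.09. Over all genes 8.24% were lower and 4.81% higher by that measure, and among those with a mean under 7, where the lower genes of all 4 lists lay, 1689 of 13019 were lower. The lower ones were Spock2, a testican proteoglycan (-0.43), Reck, a membrane-anchored Mmp inhibitor (-0.42), A2m, the protease trap alpha-2-macroglobulin (-0.37), and Tfpi2, a Kunitz-type inhibitor found in matrix (-0.36). Reck read 6.27 and 6.25 with A-FABP, against 6.85 and 6.51 with PBS. The higher one, named after its value was seen, was Serpini1, which encodes neuroserpin, an inhibitor of tissue plasminogen activator (0.35).

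Of 17 activators, surface partners and clearance receptors (median -0.02), 1 was higher and 1 lower. Plgrkt, a plasminogen receptor, read 8.26 and 8.25 with A-FABP, against 7.93 and 7.97 with PBS, at 0.30 ± 0.08 (limma adjusted p 0.296). Mrc2, the receptor that takes up collagen fragments, lay at -0.37, the protease hepsin (Hpn) at -0.22 and matriptase (St14) at 0.21. Of 21 other matrix-degrading enzymes (median -0.01), 0 were higher and 2 lower by limma at an unadjusted p under 0.05, Adam12 (-0.32) and Tll1, a tolloid protease (-0.31), with Mep1b, a meprin, at -0.35 and cathepsin S (Ctss) at -0.22. Of 16 non-collagen substrates (median -0.04), 0 were higher and 2 lower on the same measure, where 8.24% of all genes were lower. The 2 lower substrates were Comp, cartilage oligomeric matrix protein (-0.35), and Bcan, the proteoglycan brevican (-0.34). Vcan, which encodes versican, lay at 0.17 and Eln, which encodes elastin, at -0.22.

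**Figure D4:**
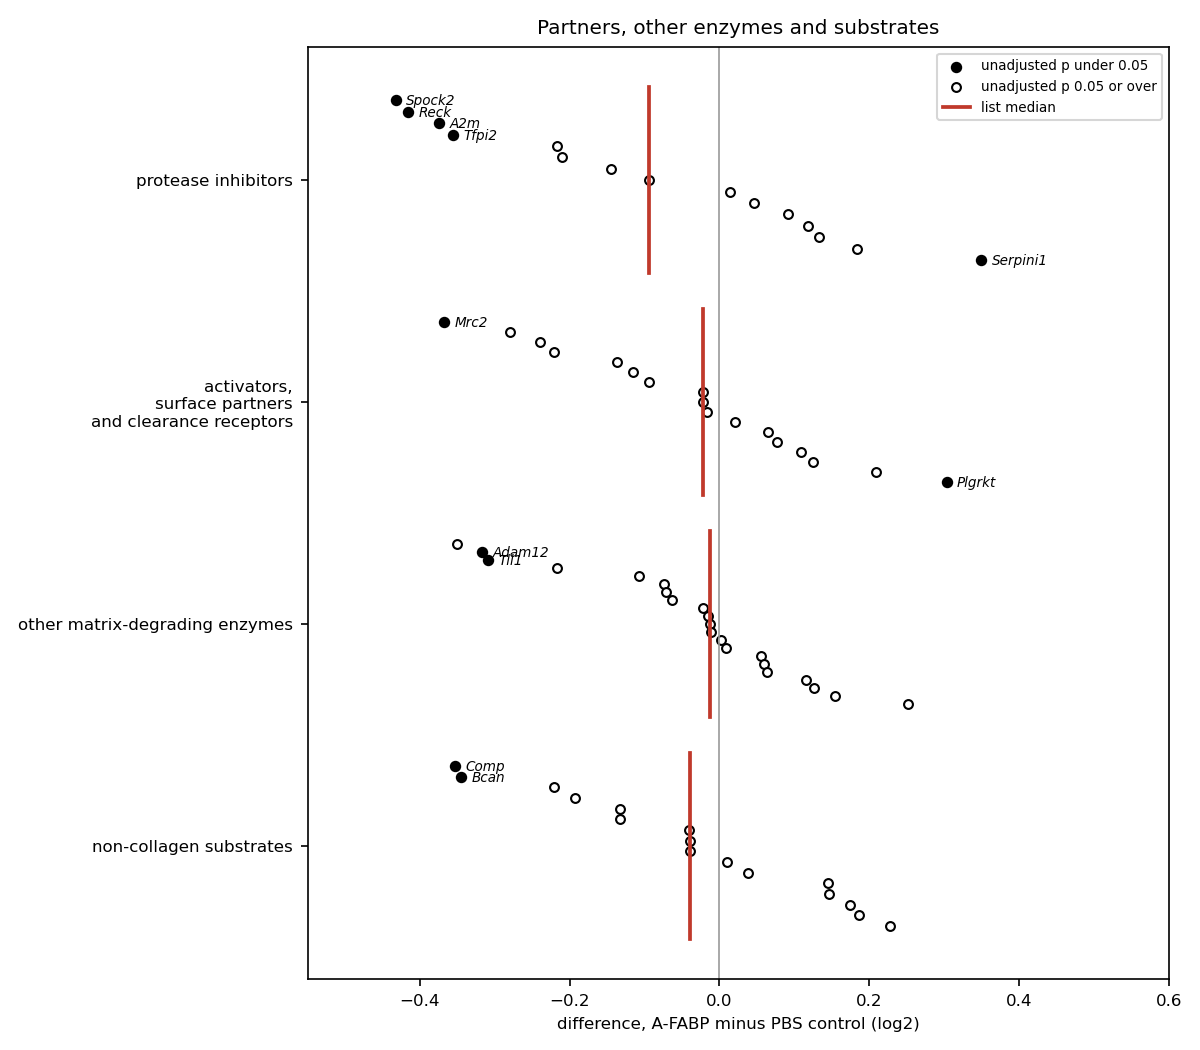
The log2 difference, A-FABP minus PBS control, of each measured gene in 4 lists of genes related to the proteases, sorted within each list, filled and named where the unadjusted p was under 0.05, with the list median as a red line. The medians lie between -0.09 and -0.01, and the named genes lie mostly to the left.

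Markers of the labelled cell type and of stromal cells that could supply proteases were read on the same arrays. Of 8 epithelial carcinoma markers, Krt8 had a mean value of 8.79. The other 7 lay between 4.79 and 6.88, beside array medians of 5.95 to 6.03. Epcam, at 4.79, is not clearly present, nor is Cldn7, at 5.31. Krt18, Krt19 and Cldn4, each at 6.01, lay within the range of those medians. Of 8 fibroblast markers, Pdgfra had a mean of 11.20 and Pdgfrb of 9.81, while Lum lay at 4.58 and Fap at 4.94. Mfap5 was lower at an unadjusted p under 0.05, with a difference of -0.39, and Thy1 differed by -0.40 with no overlap, while 5 of the 8 lay above 0. The summed level of the fibroblast markers was 55.59 to 55.96 on the A-FABP arrays and 55.85 to 56.35 on the PBS arrays, and that of the epithelial markers 49.48 to 49.53 and 50.40 to 50.92. Of 8 macrophage and leukocyte markers, Itgam (-0.34) and Ptprc (-0.45) were lower at an unadjusted p under 0.05, and both were dim, with means of 5.30 and 4.22. Cd68, by contrast, had a mean of 12.79 and a difference of -0.08. The summed level of the 8 was 52.09 to 52.17 on the A-FABP arrays and 52.40 to 53.15 on the PBS arrays. Cd14 (0.28) and Csf1r (0.16) had both A-FABP arrays above both controls. Of 8 neutrophil markers, 6 lay below 0, and S100a8, with a mean of 10.03, lay at 0.02. The others had means of 5.21 to 6.27. Among all genes with a mean under 7, 9081 of 13019 lay below 0 and 1689 were lower at an unadjusted p under 0.05. Over all genes, 4.81% were higher and 8.24% lower at that p, which is the share to set beside each marker count. At an unadjusted p under 0.05, Csf3r (-0.36) and Ltf (-0.44) were lower and Ly6g (0.54) was higher, with summed levels of 50.08 to 51.12 on the A-FABP arrays and 51.36 to 51.58 on the PBS arrays. Ltf, with a mean of 5.61, is not clearly present. The sums add log2 values, mostly of genes with means under 7, which as a whole lay lower with A-FABP (median -0.11). Minus the median of all genes at their level, the median marker difference was -0.055 (epithelial), -0.0033 (fibroblast), 0.0096 (leukocyte) and -0.052 (neutrophil). Whether the sums reflect cell numbers was not tested. The 8 endothelial markers had a median difference of -0.02 and the 7 measured adipocyte markers of 0.06. Fabp4, the gene of the added protein, read 13.33 and 13.29 with A-FABP, against 13.20 and 13.18 with PBS, so the cells carried its transcript in both groups. The part of any such cells in the protease values was not tested.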

How the data were processed

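The authors deposited log2 values made with RMA (background correction, normalization between arrays, 1 summary per probe set) in Partek 6.6, per the submitters' processing notes. RMA values compress true differences of dim and of very bright probe sets. Settings and genome build are not stated there, and detection was not called. For arrays, their number limits the precision.

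The platform annotation named 1 gene for 23521 of 41345 probe sets, several for 1814 and none for 16010. Where a gene had several probe sets of its own (4 members), the one with the highest mean over the 4 arrays stood for it.

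Groups came from the titles. Differences are A-FABP minus PBS control, fitted with limma 3.58.1 (lmFit and eBayes, 2 residual and 1.91 prior degrees of freedom) in R 4.3.3 over all probe sets, two-sided, with Benjamini-Hochberg adjustment and a threshold of 0.05. Every SE and 95% CI is limma's. With 2 arrays a group, the smallest p of a two-sided exact permutation test is 0.333. The fit was tested on simulated data. Nothing says how separate the cultures were, so p-values measure the spread between these arrays.

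Values on every array are given for Mmp3, Mmp9, Timp1, members at an unadjusted p under 0.05, the 10 members with the highest means, and the Timp and plasminogen genes. Other members are given by range, with the lowest p per group, and up to 4 genes per related list. Dync2h1, Birc3 and the other chromosome 9 neighbours were chosen after values were seen. Members and lists were chosen with earlier results of these data known. Promoter sequences are RefSeq's (GRCm38.p6). Figures used matplotlib 3.10.9.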

Additional observations from a re-analysis of the deposited data

How the results depend on the processing

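All 13 alternatives left 0 probe sets at a limma adjusted p under 0.05 where they gave a test (lowest adjusted p 0.148, with dim probe sets left out). The 12 members at an unadjusted p under 0.05 kept their sign under every alternative that gave them a value, and Mmp24 and Adamts15 kept that p under each alternative with a test, whereas Mmp23 kept it in 3 of 12. Adamts15, Mmp1b and Mmp21 have no value with dim probe sets left out. With single arrays left out, the higher members at that p numbered 2 to 4 and the lower ones 2 to 7, instead of 6 and 6. The smallest count of higher members, 2, was without A-FABP replicate 2, and there were 3 without either PBS control array. The lower members numbered 2 without PBS control replicate 1 and 3 without PBS control replicate 2. Variance settings with trend and robust fitting gave 9 higher and 5 lower members.

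Over all genes the same counts were 1066 higher and 1828 lower as deposited, 1812 and 1048 after centring each array on its median, 979 and 1062 after cyclic loess, 813 and 1445 after a repeated quantile normalization, 1889 and 1425 with trend and robust fitting, 1461 and 1313 with the ordinary two-sample test, 1409 and 1045 with dim probe sets left out, and 362 to 705 and 772 to 1554 with single arrays left out. With the replicate number as a block there were 723 and 1464 genes, and 6 higher and 5 lower members. The labels do not say that a number marks a shared day. Same-numbered arrays deviated from their group means with r = -0.00889 over all probe sets, which cannot settle whether they shared a day or batch.

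Signs turned in 21 genes, at values no larger than 0.14. Centring gave Adamts1 0.064, Adamts20 0.054, Adamtsl4 0.0089, Mmp11 0.032, Mmp25 0.030, Mmp9 0.054 and Timp2 0.044. Cyclic loess gave Adamts18 0.017, Adamts20 0.095, Adamts7 -0.034, Mmp2 -0.055, Mmp20 0.052, Mmp25 0.055, Mmp9 0.044 and Timp3 0.00071. The repeated quantile normalization gave Adamts20 0.068, Adamts7 -0.040, Adamtsl5 -0.0020, Mmp2 -0.072, Mmp20 0.0040, Mmp25 0.023 and Mmp9 0.025. Removing the trend on mean level gave Adamts18 0.013, Adamts20 0.11, Adamts7 -0.039, Mmp2 -0.059, Mmp20 0.050, Mmp25 0.070, Mmp9 0.056 and Pecam1 0.0087. With single arrays left out, values ran from -0.047 to 0.046 for Adamts1, -0.033 to 0.22 for Adamts19, -0.062 to 0.039 for Adamts20, -0.88 to 0.14 for Adamts5, -0.075 to 0.12 for Adamts7, -0.22 to 0.021 for Adamtsl2, -0.18 to 0.066 for Adamtsl4, -0.14 to 0.31 for Adipoq, -0.091 to 0.024 for Mmp11, -0.058 to 0.079 for Mmp2, -0.087 to 0.19 for Mmp8, -0.053 to 0.18 for Tek, -0.19 to 0.0087 for Timp3 and -0.45 to 0.10 for Timp4. The cause was not tested.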
